A study of Mus musculus with 12 samples.

Results

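Cytosolic ribosomal protein genes were followed across 3 successive stages of early T cell development in mouse thymocytes. The genes were chosen by symbol alone: Rpl or Rps followed by a digit, Rplp0 to Rplp2, or Rpsa, on an array probe set that the platform annotation gives to a single gene, leaving out S6 kinases and pseudogenes. This gave 50 of the 18193 genes on the array, 26 named Rpl, 23 named Rps or Rpsa, and Rps19bp1. The last encodes a binding partner of Rps19 and was taken in by its symbol, while the other names are those of ribosomal subunit proteins or of paralogs of one. Each gene was represented by its brightest probe set.

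Double negative (DN) thymocytes lack both CD4 and CD8. DN2 cells were sorted as CD44+CD25+, DN3 cells as CD44-CD25+ and DN4 cells as CD44-CD25-, all from thymuses of female C57BL/6 mice 5 to 6 weeks old. Each of 4 sorts pooled thymuses of 4 mice and gave 1 array of each stage, so 12 Affymetrix whole-genome mouse arrays fell into 3 groups of 4. Magnetic columns first removed CD4+ and CD8+ cells, and the sort then left out cells that bound antibodies to NK1.1, CD3, the gamma-delta receptor, CD8 or CD4.

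Ribosomal proteins join ribosomal RNA in a large and a small subunit, and cells make most of them in balanced amounts. Their messenger RNAs typically begin with a C and a run of pyrimidines, the 5′ terminal oligopyrimidine (TOP) tract, through which the kinase complex mTORC1 and the RNA-binding protein Larp1 set their translation. Thymocytes that pass the pre-T-cell-receptor checkpoint between DN3 and DN4 divide rapidly. Some ribosomal proteins have paralogs, and mice without Rpl22 lack most alpha-beta T cells, while Rpl22l1 is its close paralog.

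A promoter window was found in RefSeq (build GRCm38.p6) for 44 of the 50 genes, which lie on 17 chromosomes. A TOP start, read as a C at the annotated first base followed by at least 4 pyrimidines, was present in 8 of these 44 windows (18.2%), against 2.5% of 27025 genes. Those 8 are printed below from 10 bases before the annotated start to 20 bases from it, with the pyrimidine run at the start in capitals. They show the sequence that marks the family, and Rpl14 and Rps6 return in the results.
Rpl14 (chr9:120571507-120571536, + strand): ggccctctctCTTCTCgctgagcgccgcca
Rpl35 (chr2:39005112-39005141, - strand): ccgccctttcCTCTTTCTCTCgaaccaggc
Rpl38 (chr11:114668570-114668599, + strand): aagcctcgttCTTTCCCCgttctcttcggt
Rplp2 (chr7:141447641-141447670, + strand): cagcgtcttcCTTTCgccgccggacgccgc
Rps6 (chr4:86857348-86857377, - strand): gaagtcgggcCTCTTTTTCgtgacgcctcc
Rps10 (chr17:27635225-27635254, - strand): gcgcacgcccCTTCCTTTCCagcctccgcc
Rps18 (chr17:33955646-33955675, - strand): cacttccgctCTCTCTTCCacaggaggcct
Rps27 (chr3:90213629-90213658, - strand): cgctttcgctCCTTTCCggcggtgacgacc

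The other genes on which the results turn have no TOP start at the annotated first base, and are shown in the same frame.
Rpl22 (chr4:152325716-152325745, + strand): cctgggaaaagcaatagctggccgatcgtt
Rpl22l1 (chr3:28805498-28805527, + strand): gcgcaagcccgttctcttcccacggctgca
Rpl3l (chr17:24727816-24727845, + strand): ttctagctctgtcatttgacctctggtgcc
Rps24 (chr14:24490668-24490697, + strand): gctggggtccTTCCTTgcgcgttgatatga
Rps25 (chr9:44407704-44407733, + strand): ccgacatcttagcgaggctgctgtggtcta
Rps27l (chr9:66946076-66946105, + strand): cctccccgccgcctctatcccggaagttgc

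Annotated starts can lie a few bases from the start a cell uses. When a TOP start was allowed within 5 bases of the annotated base, 20 of 44 windows (45.5%) held one, against 18.5% of all genes. In Rpl22l1 and Rps24, for example, such a run lies beside the annotated base, and in Rpl22 and Rpl3l none does. The letters CCGGAAG, the core that ETS-family factors such as Gabpa bind, were found on either strand of the window of 300 bases (250 before the start) in 21 of 44 genes (47.7%), against 9.1% of all genes. Rpl14 and Rps19bp1, also higher in DN4, had no match, while Rpl6 and Rps10, which hardly differed between DN4 and DN2, had a match. A link between the motif and the differences was not tested. Copies in 3 genes that were higher in DN4 are shown with the match in capitals.
Rps25 (chr9:44407631-44407657, + strand): acccattgccCCGGAAGtactctctcg
Rps27l (chr9:66946085-66946111, + strand): cgcctctatcCCGGAAGttgctgaggg
Rps6 (chr4:86857442-86857468, - strand): taatctacgcCCGGAAGtaacgcccct

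GGGCGG, the GC box, was in 25 of 44 windows (56.8%), against 35.9% of all genes. CACGTG, the E-box that Myc binds with Max, was in 3 windows (6.8%), against 7.2%, and TATAAA was in 5 (11.4%), against 14.2%. Each motif was searched on both strands and by itself, so matches of different motifs may overlap. The 8 genes with a TOP start had a median log2 difference of -0.01 between DN4 and DN2, with a range of -0.07 to 0.60. The 35 tested genes with a window and no TOP start had a median of 0.05.

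Signals are deposited linear intensities that were quantile normalized here. Differences are on the scale of log2(signal + 5.57), which understates the change of dim genes, and a gene is called at a Benjamini-Hochberg adjusted p under 0.05 from limma. Of the 50 genes, 49 passed the filter on dim signals, and Rps16, whose single probe set was dim on the arrays, did not. The ribosomal protein signals lay at the top of the array's range: 35 of 50 had a mean above 4831, the 99th percentile of the table, and 13 lay below 1000. Of the stage markers, Cd44 averaged signals of 725 in DN2, 49.5 in DN3 and 47.1 in DN4, and Il2ra, which encodes CD25, averaged 2358, 1414 and 120 in the same order. Ptcra, which pairs with the beta chain at the pre-T-cell-receptor checkpoint, averaged 108, 612 and 302. Cd4 did not pass the filter, while Cd8b1 averaged 3.8, 18.3 and 313. Of 3 natural killer cell markers 2 passed the filter, and the list summed to signals of 1567 to 1814 on the DN2 arrays, 371 to 707 on the DN3 arrays and 75.5 to 95.2 on the DN4 arrays, nearly all of it Nkg7, a granule protein. Of 6 myeloid markers 4 passed, with sums of 271 to 339.5, 152 to 196 and 88.7 to 159 in the same order, and Lyz2, a lysozyme, averaged 189, 67.2 and 30 of that. Dendritic cell markers, of which 1 of 4 passed (Itgax, averages of 67.4, 12.4 and 5.9), summed to 62.1 to 125, 19.3 to 67.3 and 20.5 to 49.9. Of 2 erythroid markers neither passed, but Alas2, the enzyme of haem synthesis in red cell precursors, averaged 4.3 in DN2 and 8.8 in DN3, and had signals of 47.9, 9.6, 81.6 and 49.2 on the DN4 arrays. B cell markers (2 of 4 passed) summed to 183 to 247, 165 to 212 and 128 to 196, and thymic stroma markers (3 of 5 passed) to 155 to 279.5, 419 to 610 and 184 to 275. Some of these sums were lowest in DN4 and that of the erythroid markers was highest there. The part of such cells in any difference below was not tested, and in these bulk samples fewer cells of a type and less RNA per cell cannot be told apart.

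As a group the ribosomal protein genes moved little between stages once arrays were quantile normalized. Their median log2 difference was 0.03 for DN3 against DN2, -0.004 for DN4 against DN3 and 0.02 for DN4 against DN2, beside medians over the 11243 genes tested of 0.02, 0.05 and 0.06. The typical size of a difference, without its sign, was 0.06, 0.10 and 0.07 for the ribosomal protein genes, against 0.22, 0.26 and 0.35 for all genes. The median standard error also differed, at 0.10 for the ribosomal protein genes and 0.18 for all genes. Most ribosomal protein genes are far brighter than a typical gene, and they were not compared with genes of like brightness. The part of brightness in the smaller differences was not tested. Between DN4 and DN2, 36 of 49 differed by less than 0.15. The 95% interval of the difference lay within 0.5 of zero on either side for 36 of 49 genes, with a median half-width of 0.23, so changes below that size were not resolved for a typical gene. Both subunits gave similar medians, 0.06 for the Rpl genes and 0.002 for the Rps genes between DN4 and DN2. Rpl6, Rps4x, Rpl7 and Rps10 had the smallest differences between DN4 and DN2, at 0.00 ± 0.08, -0.001 ± 0.09, -0.004 ± 0.08 and -0.004 ± 0.09 (SE, n = 4 arrays per stage).

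**Figure D1:**
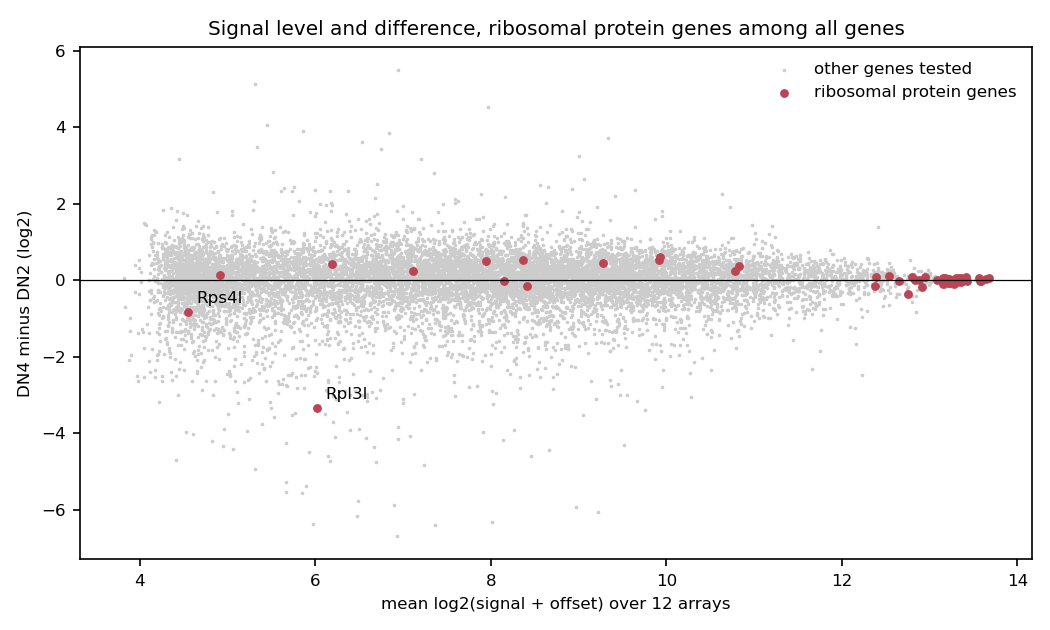
Log2 difference between DN4 and DN2 (vertical axis) against mean log2(signal + offset) over the 12 arrays (horizontal axis) for each gene tested, after quantile normalization. Most of the 49 ribosomal protein genes, in red, sit at the bright end close to zero, Rpl3l and Rps4l lie below, and a group of dimmer genes lies above zero. The place of the group relative to other genes depends on the scaling of the arrays.

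This result depended on how the arrays were scaled. Quantile normalization gives every array the same distribution, and it brought the median of the ribosomal protein genes to 13.07 on the log2 scale in each stage, with SDs of 0.01, 0.03 and 0.01 in DN2, DN3 and DN4. Where each array was instead centred on its own median, the same median averaged 12.93 ± 0.28 over the DN2 arrays, 13.03 ± 0.10 over the DN3 arrays and 13.29 ± 0.03 over the DN4 arrays (SD, n = 4). All 4 DN4 arrays then lay above all arrays of the other stages. As deposited, the medians were 13.02 ± 0.18, 13.16 ± 0.11 and 13.01 ± 0.09 in the same order, and the stages overlapped.

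The array medians that set this scale were lower in DN4. They averaged signals of 22.2 ± 4.7 in DN2, 22.6 ± 2.7 in DN3 and 16.9 ± 1.2 in DN4 (SD, n = 4). The 99.9th percentile of an array stood at 473 times the median in DN2, 485 times in DN3 and 597 times in DN4. Relative to the median of all genes, the ribosomal protein genes differed between DN4 and DN2 by -0.04 after quantile normalization, but by 0.29 with arrays centred on their median, 0.27 with no normalization and 0.28 with arrays scaled to their sum. Between DN4 and DN3 the same values were -0.05, 0.27, 0.25 and 0.27, and between DN3 and DN2 they were 0.02, 0.01, 0.01 and 0.01. The scalings other than quantile normalization differ only by a single factor for each array. Relative to the median of all genes that factor nearly cancels, so their values had to be close and count as a single result. The direction of the group in DN4 relative to other genes therefore differs between quantile normalization and scaling by a factor. Neither was tested against an outside standard. The typical size of a difference without its sign also depended on the scaling. With arrays centred on their median it was 0.37 between DN4 and DN2, the same as for all genes. Between DN4 and DN3 it was then 0.27, against 0.26, and between DN3 and DN2 0.12, against 0.23. With no normalization the values were 0.06 against 0.39, 0.16 against 0.43 and 0.15 against 0.25 in the same order.

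**Figure D2:**
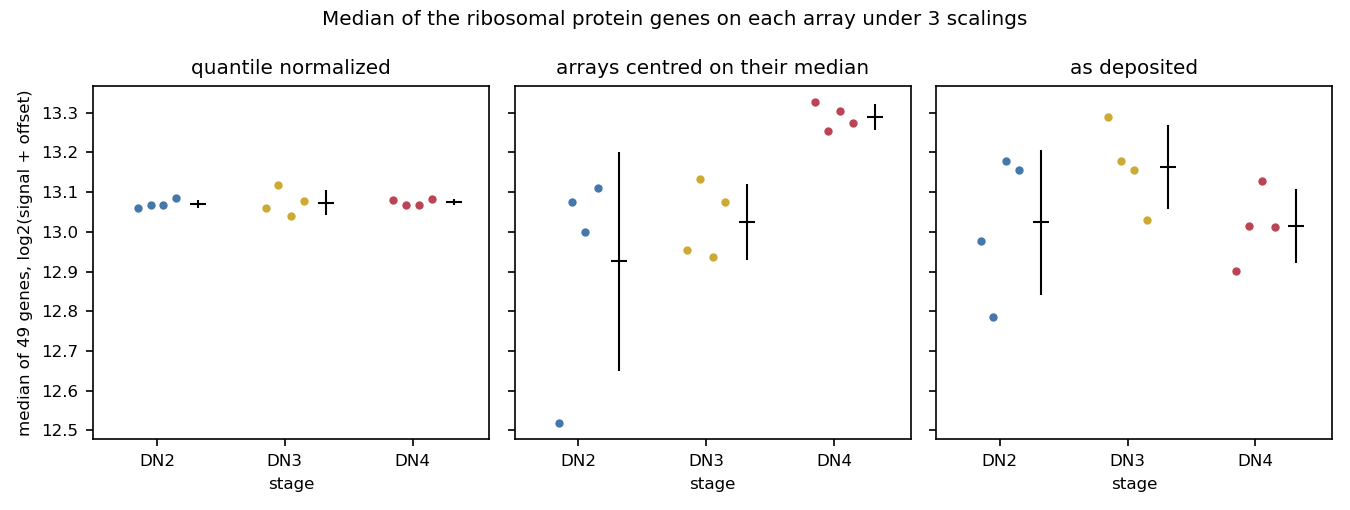
Median log2(signal + offset) of the 49 ribosomal protein genes on each array (points), with the stage mean and SD (bars, n = 4), after quantile normalization, with arrays centred on their median, and as deposited. Only with median centring do the DN4 arrays lie apart, from 13.25 to 13.33, above the DN2 and DN3 arrays.

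Between DN3 and DN2, none of the 49 genes was called by limma, against 11.0% of all genes, and 1 had an unadjusted p under 0.05. That gene was Rpl14, a large-subunit protein, whose difference of 0.27 ± 0.11 (SE) had a limma adjusted p of 0.147. A fit that blocked on the sort called it (limma adjusted p = 0.0463), beside 20.5% of all genes. The groups of 4 arrays overlapped for every ribosomal protein gene in this comparison, where 17.3% of all genes had groups that did not.

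Between DN4 and DN3, only Rpl3l was called, and it was lower, against 16.0% of all genes. Blocking on the sort gave 7 calls among the 49, against 30.0% of all genes. In that fit Rpl14 (0.34, limma adjusted p = 0.0149), Rpl27a (0.46, 0.00931), Rpl7l1 (0.34, 0.0315) and Rps19bp1 (0.30, 0.0452) were higher in DN4. Lower were Rpl3l, Rps24 (-0.24, limma adjusted p = 0.0315) and Rpl37a (-0.23, 0.0357), a large-subunit protein. The groups did not overlap for 3 genes that were higher in DN4 (Rpl14, Rpl7a and Rpl8) and 5 that were lower (Rpl37, Rpl3l, Rplp2, Rps20 and Rps24), against 24.0% of all genes.

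Between DN4 and DN2, 7 of 49 ribosomal protein genes were called, 5 higher and 2 lower, against 34.4% of all genes called (17.7% higher and 16.6% lower). The groups did not overlap for 8 genes, against 32.5% of all genes. Each of the 7 called genes differed in the same direction in all 4 sorts. Blocking on the sort gave 7 higher and 2 lower, against 46.4% of all genes. The genes gained were Rpl7l1 and Rpl27a, a large-subunit protein with signals of 191, 322, 368 and 363 on the DN4 arrays of sorts 1 to 4, against 146, 210, 263 and 246 on the DN2 arrays. The stages overlapped for Rpl27a, but DN4 was higher in 4 of 4 sorts, by 0.50 (limma adjusted p = 0.189, or 0.00318 with the block). With arrays centred on their median, 16 were called higher and 1 lower, against 34.3% of all genes called. With no normalization 0 were higher and 1 lower, against 27.1% of all genes.

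**Figure D3:**
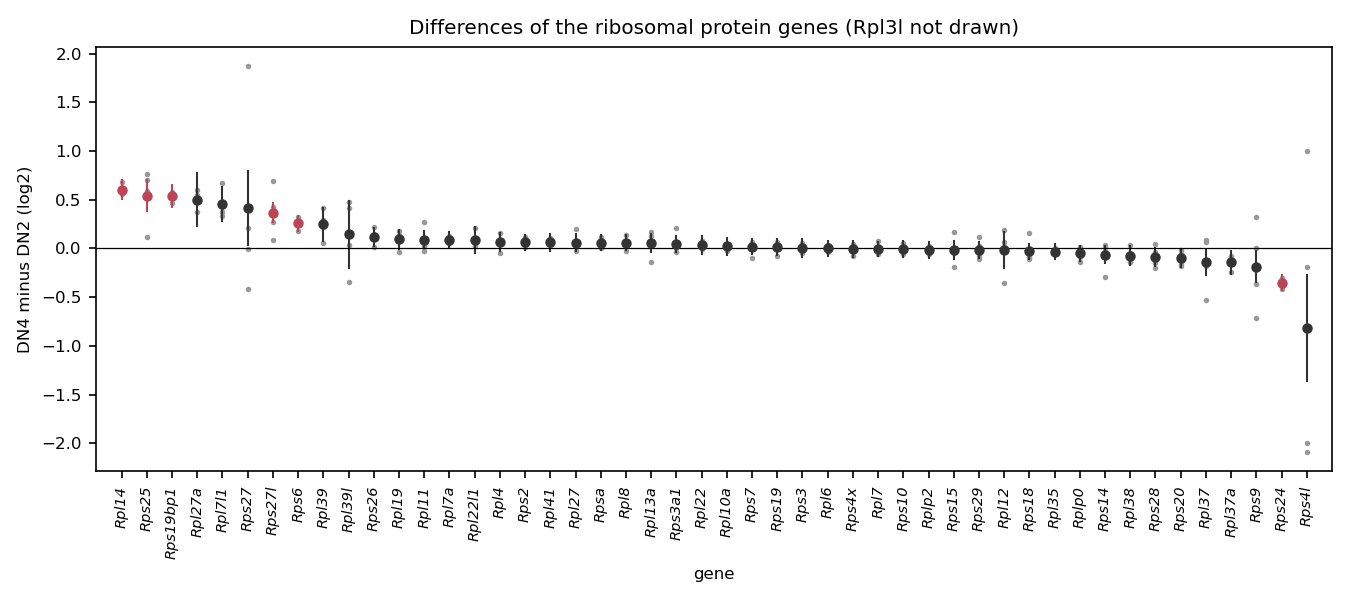
Log2 difference between DN4 and DN2 of 48 ribosomal protein genes after quantile normalization (large points with SE, red where called at an adjusted p under 0.05), with the difference within each of the 4 sorts as small points. Genes run from the highest difference, Rpl14 at 0.60, to the lowest drawn, Rps4l at -0.82, and most lie within 0.15 of zero.

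Rpl14 had the largest rise. Its signals were 757, 703, 902 and 811 on the DN2 arrays of sorts 1 to 4, 1006, 894, 948 and 963 on the DN3 arrays, and 1156, 1128, 1340.5 and 1199 on the DN4 arrays. Every DN4 array lay above every DN3 and DN2 array, and DN2 and DN3 touched at a single DN2 array, that of sort 3. The difference between DN4 and DN2 was 0.60 ± 0.11 (SE), a signal 52.0% higher in DN4 (limma adjusted p = 0.00119). Without any 1 array it was 0.55 to 0.67 (limma adjusted p 0.00117 to 0.00418). Of 14 other settings, it lost its call only without between-array normalization, at 0.33, where the median of all genes was -0.29.

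Among small-subunit genes, Rps25 and Rps6 were higher in DN4. Rps25, which some viral internal ribosome entry sites need for translation, had signals of 807, 686, 846 and 904 on the DN2 arrays, 838, 834, 931 and 1193 on the DN3 arrays, and 874, 1172, 1381 and 1361 on the DN4 arrays. Its DN4 array of sort 1 fell within the DN2 range, while the other DN4 arrays lay above it. The difference between DN4 and DN2 was 0.54 ± 0.17 (SE, limma adjusted p = 0.0273). It lost the call without any 1 of the DN2 arrays of sorts 1 and 2 or the DN4 arrays of sorts 2, 3 and 4, at adjusted p up to 0.0778. It was also not called with no normalization (0.27), with arrays scaled to their sum (0.47), with no filter, or in sorts 1 and 2 alone (0.44).

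Rps6, the subunit protein that S6 kinases phosphorylate, had signals of 1534, 1594, 1632 and 1634 on the DN2 arrays, 1828, 1621, 1806 and 1786 on the DN3 arrays, and 1828, 1924, 2048 and 1847 on the DN4 arrays. The DN4 arrays lay above all DN2 arrays, and the DN3 arrays overlapped both. The difference between DN4 and DN2 was 0.26 ± 0.09 (SE, limma adjusted p = 0.0476). Leaving out any 1 of the 12 arrays ended the call (adjusted p 0.0536 to 0.116). Of 15 other settings, with differences of 0.06 to 0.44, 8 ended it too. Among these were no normalization, arrays scaled to their sum, the mean of all probe sets and only the 8 arrays compared. A dimmer second probe set of Rps6 went the other way between DN4 and DN3, by -0.43 against 0.12, with signals of 54.4, 56.6, 42.6 and 55.9 in DN4, against 60, 67.5, 79.3 and 84.8 in DN3.

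Rps19bp1 encodes a nucleolar protein that binds Rps19 and is not a subunit. Its signals were 279, 230, 268 and 310 in DN2, 306, 339, 288.5 and 346 in DN3, and 386.5, 343, 405 and 449 in DN4. The DN4 and DN2 arrays did not overlap. The difference was 0.54 ± 0.12 (SE, limma adjusted p = 0.00588), and its call held without any 1 array. The call ended with no normalization (0.13), with arrays scaled to their sum (0.33), and in sorts 1 and 2 alone (0.52) or sorts 3 and 4 alone (0.56).

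Apart from Rpl3l, Rps24 was the gene called lower in DN4. It encodes a small-subunit protein, and mutations of its human counterpart cause Diamond-Blackfan anaemia. The signals of Rps24 were 7487, 7966, 7487 and 7764 in DN2, 6971, 7487, 7168 and 6838 in DN3, and 5822, 6447, 5625 and 6232 in DN4. All DN4 arrays lay below all arrays of the other stages. The difference between DN4 and DN2 was -0.35 ± 0.09 (SE, limma adjusted p = 0.0113). With arrays centred on their median it was -0.02 (limma adjusted p = 0.917). The call also ended with no normalization (-0.40), with arrays scaled to their sum (-0.20), with the mean of all probe sets (-0.16), without probe sets ending in _x_at or _s_at (-0.59), and in either pair of sorts alone (-0.33 and -0.36). Over its 6 bright probe sets the differences ran from -0.59 to 0.47, and the value of 0.47 was that of the dimmest.

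**Figure D4:**
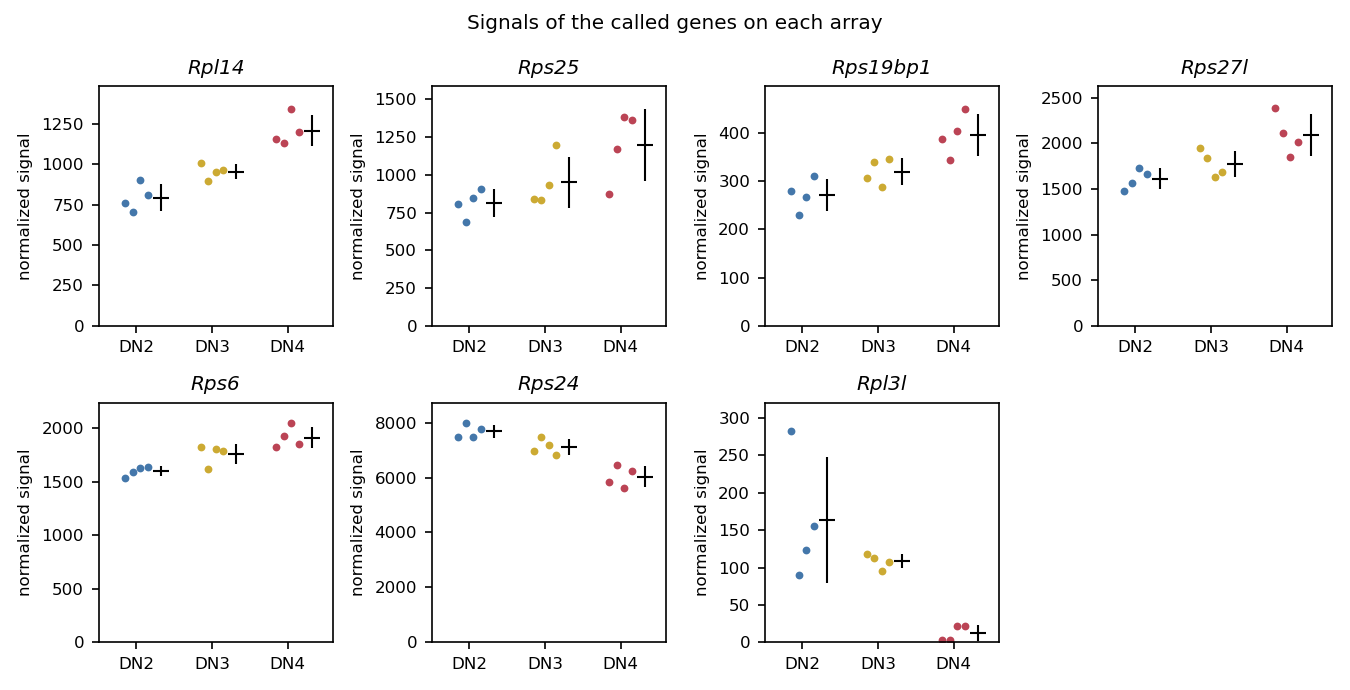
Quantile-normalized signal of the 7 genes called between DN4 and DN2 on each array (points) with the stage mean and SD (bars, n = 4), on axes that start at 0. Rpl14, Rps25, Rps19bp1, Rps27l and Rps6 are highest in DN4, Rps24 is lowest there, and Rpl3l in DN4 lies just above the filter level of 20.1 on 2 arrays and far below it on the others.

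Rpl3l, the paralog of Rpl3 that is known in mice from heart and skeletal muscle, fell furthest. It had signals of 282.6, 90.3, 123 and 156 on the DN2 arrays of sorts 1 to 4, 118, 113, 95.7 and 108 on the DN3 arrays, and 3.4, 2.6, 21.9 and 22.2 on the DN4 arrays. No DN4 array came near those of DN2 and DN3, and the stage mean in DN4 lay below the filter level. The fitted difference was -3.33 ± 0.43 between DN4 and DN2 (SE, limma adjusted p = 1.15e-04) and -2.89 ± 0.43 between DN4 and DN3 (limma adjusted p = 0.00116). Against the filter level, DN4 was at least 6.02-fold lower than DN2 and at least 4.43-fold lower than DN3. It was called lower in both comparisons under each of 13 other settings and without any 1 array, with -4.28 in sorts 1 and 2 alone and -2.38 in sorts 3 and 4 alone between DN4 and DN2. A stricter filter, at the 75th percentile, left it untested. Nkg7, Lyz2 and Itgax, markers of natural killer, myeloid and dendritic cells, were also lowest in DN4. Nkg7 averaged 1642, 550 and 70.1 in DN2, DN3 and DN4. Some other markers on those lists were not lowest in DN4. Csf1r of the myeloid list averaged 35, 44.1 and 48.5, and Klrd1 of the natural killer list 32, 9.1 and 11.2. The part of such cells in the fall of Rpl3l was not tested. Rpl3, its partner, shares its probe sets with other genes and was not tested by itself.

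The remaining comparisons concern paralogs, each set against its partner by the difference between their changes, since the signals of different probe sets cannot be ranked. Of 10 pairs, 5 had both genes measured, which gave 15 tests by exact two-sided permutation of 4 against 4 arrays. The arrays were permuted without keeping their pairing by sort, and the smallest possible p is 0.0286. None had an adjusted p under 0.05 over the 15 tests, and most of the 15 would have had to reach that smallest p for any to pass.

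Rpl22l1 had signals of 4065, 4520, 5872 and 5650.5 in DN2, 5914, 5598, 5954 and 6217 in DN3, and 4705, 4643, 6182 and 5740 in DN4. The arrays of sorts 1 and 2 were low in DN2 and DN4, but not in DN3. Rpl22, an RNA-binding protein of the large subunit, had 8834, 8582, 10184 and 9947 in DN2, 9594, 9104, 10256.5 and 10051 in DN3, and 9336.5, 9064, 10118 and 9947 in DN4. Between DN3 and DN2, Rpl22l1 differed by 0.25 ± 0.14 and Rpl22 by 0.06 ± 0.10 (SE, n = 4). The difference between the changes was 0.19 (exact permutation p = 0.0286, adjusted 0.214), in the same direction in 4 of 4 sorts. Between DN4 and DN3 it was -0.14 (exact permutation p = 0.0571, adjusted 0.286), and between DN4 and DN2 it was 0.05 (exact permutation p = 0.657, adjusted 0.821). The probe sets of Rpl22 disagreed: a dimmer one had signals of 628, 834, 942 and 582 in DN4, against 1654.5, 1357, 1021 and 1219 in DN2. That is a difference of -0.82, against 0.04 for the brightest, so a change of Rpl22 between DN4 and DN2 is uncertain.

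Rpl7l1 had signals of 650, 622, 910 and 832 in DN4, against 514, 477, 569 and 616 in DN2, and the groups did not overlap. Rpl7 had 8877, 8582, 8582 and 8667 in DN4, against 8423, 8758, 8932 and 8685 in DN2. Rpl7l1 differed by 0.45 ± 0.19 (SE, limma adjusted p = 0.0785) and Rpl7 by -0.004 ± 0.08. The difference between these changes was 0.46, in 4 of 4 sorts (exact permutation p = 0.0286, adjusted 0.214), and 0.15 with arrays centred on their median. Blocking on the sort, Rpl7l1 was called higher in DN4 (limma adjusted p = 0.0059). Of its 3 probe sets, 2 gave 0.45 and 0.47, and the dimmest gave -0.47.

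Rps27l, which p53 activates in human and mouse cells, was called against DN2 by itself. It had signals of 1479, 1572, 1736 and 1670 in DN2, 1946, 1836, 1627 and 1685 in DN3, and 2390, 2119, 1846 and 2012 in DN4. The DN4 arrays lay above all DN2 arrays, by more in sorts 1 and 2 than in sorts 3 and 4. The difference between DN4 and DN2 was 0.37 ± 0.11 (SE, limma adjusted p = 0.024), with 0.23 to 0.53 over its 3 probe sets. It lost the call without the DN2 or the DN4 array of sort 1 or of sort 2 (adjusted p up to 0.0691). The difference was 0.56 in sorts 1 and 2 and 0.18 in sorts 3 and 4, and it was not called in either pair of sorts. The call also ended with no normalization, with no filter and with only the 8 arrays compared. Its partner Rps27, on a dim probe set, varied within stages, with signals of 57.2, 109, 164 and 53.9 in DN4, against 78.3, 109, 40.7 and 45.9 in DN2. The difference between the changes was -0.05 (exact permutation p = 0.943).

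Rpl39l, known in mice from male germ cells, and Rps4l were dim. Rpl39l had signals of 35.2, 10.3, 36.5 and 21.4 in DN4, against 23.8, 14.5, 35.4 and 14.6 in DN2. Rps4l had 3.7, 31.3, 32.1 and 3.8 in DN4, against 31.5, 12.9, 37.2 and 34.3 in DN2. The stages overlapped for both genes. The differences between the changes relative to Rpl39 and Rps4x had exact permutation p of 0.171 or above in the 6 tests.

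**Figure D5:**
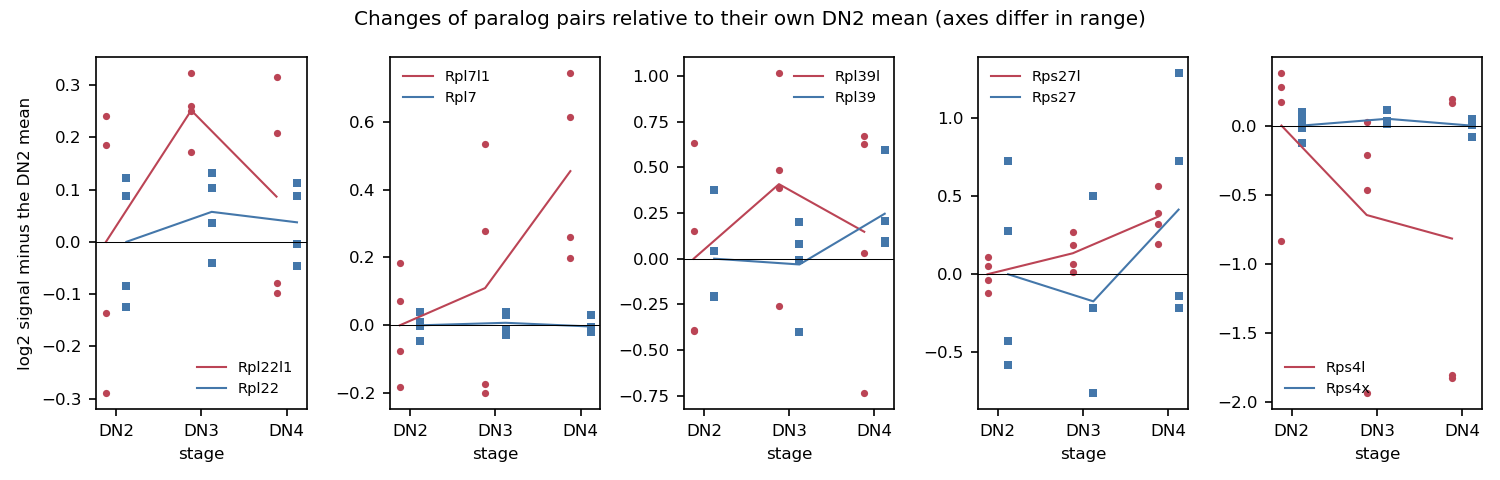
Log2 signal of each paralog (red circles) and its partner (blue squares) on each array minus the gene's own DN2 mean, by stage, with lines through the stage means. Rpl22l1 is highest in DN3 and Rpl7l1 in DN4, while Rpl22 and Rpl7 stay close to zero on their brightest probe sets. Axis ranges differ between panels.

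Probe sets that the annotation gives to a ribosomal protein gene together with other genes were left out above. They gave a similar picture after quantile normalization, and values under other scalings are not given for them. They list 46 ribosomal protein symbols, of which 31 have no probe set of a single gene and so stand outside the named set. The rest are in the named set too. Of 110 such probe sets, 104 passed the filter, with median differences of 0.03 for DN3 against DN2, -0.01 for DN4 against DN3 and 0.03 for DN4 against DN2. Their calls were 0, then 1 higher, then 2 higher and 1 lower, against 7.87%, 12.3% and 29.6% of all probe sets tested. Among 22 genes with more than 1 bright probe set, another went the other way by over 0.5 for 1 gene between DN3 and DN2, 2 between DN4 and DN3, and 3 between DN4 and DN2. That of Rps10 between DN3 and DN2 had signals of 8720, 7954, 7843 and 6798 in DN3, against 4405, 3497, 5832 and 7098 in DN2.

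Genes that share the TOP sequence or act on ribosomal proteins were read from lists. Their counts stand beside shares of all genes called of 11.0% for DN3 against DN2, 16.0% for DN4 against DN3 and 34.4% for DN4 against DN2, or 20.5%, 30.0% and 46.4% when blocking on the sort, and no list was tested as a set. Of 18 other TOP transcripts tested, such as the elongation factors Eef1a1 and Eef2, 0 were called between DN3 and DN2 and between DN4 and DN3. Between DN4 and DN2, 2 were higher and 0 lower: Hnrnpa1, a splicing factor, by 0.32 ± 0.11 (SE, limma adjusted p = 0.0332) and Eif4a2, an RNA helicase of translation initiation, by 0.46 ± 0.15 (SE, limma adjusted p = 0.0374). Blocking on the sort, 1 was higher in DN3 than in DN2 (Eif4a2, by 0.48, limma adjusted p = 0.00541), 0 were called between DN4 and DN3, and 3 were higher in DN4 than in DN2. Their median difference between DN4 and DN2 was 0.08, beside 0.06 for all genes. With arrays centred on their median 7 of the 18 were called higher, and with no normalization 0, beside 34.3% and 27.1% of all genes called. Of the subunits with other names, 1 of 3 was measured, Fau, at -0.09 ± 0.24 (SE) between DN4 and DN2.

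Of 19 chaperones of ribosomal proteins and late assembly factors tested, 8 were higher in DN4 than in DN2, Rps19bp1 among them, beside 17.7% of all genes called higher. The others did not pass, such as Nmd3, a nuclear export adaptor of the large subunit, at -0.03 ± 0.12, and Sbds, which helps release a factor from the new large subunit, at 0.11 ± 0.13 (SE). Only 2 were higher in DN3 than in DN2 and 1 in DN4 than in DN3, and 0 were lower in any comparison. Blocking on the sort, the counts of higher genes were 5 for DN3 against DN2, 6 for DN4 against DN3 and 13 for DN4 against DN2. Without the block, the counts at the 2 successive steps lie close to the shares of all genes called, or below them. With the block they lie above those shares, which count both directions. The median differences at these steps were 0.18 for DN3 against DN2 and 0.17 for DN4 against DN3, beside 0.02 and 0.05 for all genes. Their median difference between DN4 and DN2 was 0.35, beside 0.06 for all genes. Relative to the median of all genes it was 0.29 after quantile normalization. It was 0.39 with arrays centred on their median, 0.38 with no normalization and 0.39 with arrays scaled to their sum. The latter values had to be close, since those scalings differ by a single factor per array, which nearly cancels here. The direction was thus the same with and without quantile normalization. The counts called higher under the last 3 scalings were 10, 2 and 6, with 0 lower. Of all genes, 34.3%, 27.1% and 34.2% were then called in either direction.

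Bysl, which the small subunit needs to mature, had signals of 192, 259, 233 and 290 in DN2, 392, 328, 324 and 403 in DN3, and 485, 555.5, 525 and 597 in DN4. The 3 stages did not overlap. It was higher in DN4 than in DN2 by 1.15 ± 0.14 (SE, limma adjusted p = 7.66e-05). Rpf2, which in yeast brings Rpl5 and Rpl11 into the large subunit, was higher by 1.001 ± 0.21 (SE, limma adjusted p = 0.00307). Grwd1, the chaperone of Rpl3, was higher by 0.49 ± 0.11 (SE, limma adjusted p = 0.004), and Ltv1, a small-subunit assembly factor, by 0.54 ± 0.12 (SE, limma adjusted p = 0.00476).

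Of 9 genes of p53 and ribosomal stress, 1 was higher and 1 lower in DN4 than in DN2, or 2 and 2 when blocking on the sort. Cdkn1a, the cell cycle inhibitor p21, had signals of 171, 291, 256 and 148.5 in DN4, against 1817.5, 1226, 3497 and 3308 in DN2, a difference of -3.40 ± 0.36 (SE, limma adjusted p = 2.7e-05). Zmat3, an RNA-binding p53 target, was higher by 0.995 ± 0.21 (SE, limma adjusted p = 0.00351). Between DN3 and DN2, Zmat3 was the 1 gene called with or without the block, higher by 0.85 ± 0.21 (SE, limma adjusted p = 0.0222). Between DN4 and DN3, Cdkn1a was called without the block, lower by a log2 difference of -2.63 ± 0.36 (SE, limma adjusted p = 0.000677). With the block 3 were lower, since Mdm4, an inhibitor of p53, at -0.33, and Ccng1, a p53 target, at -0.34, were called too (limma adjusted p = 0.00737 and 0.044).

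Of 12 genes of mTORC1 signalling and TOP control, 0 were called between DN3 and DN2, 1 was lower in DN4 than in DN3, and 1 was higher and 3 lower in DN4 than in DN2. Blocking on the sort, 1, 2 and 6 were lower over the 3 comparisons, and 1 was higher in DN4 than in DN2. Rptor, the mTORC1 scaffold, at -0.33, Eif4ebp1, an mTORC1 substrate, at -0.41, and Rheb, an activator of mTORC1, at -0.27 were gained between DN4 and DN2 (limma adjusted p with the block 0.0238, 0.0273 and 0.0164). Mycn, a Myc-family factor, had signals of 75.5, 54.7, 93.3 and 56.0 in DN4, against 402, 261, 341 and 263 in DN3 and 395, 331, 294 and 248 in DN2. All DN4 arrays lay far below the rest, with a difference of -2.10 ± 0.20 from DN3 (SE, limma adjusted p = 9.36e-05). Myc was lower in DN4 than in DN2 by a log2 difference of -1.40 ± 0.41, in 3 of 4 sorts (SE, limma adjusted p = 0.0207). Tsc1, an inhibitor of mTORC1 signalling, differed by -0.36 ± 0.12 (SE, limma adjusted p = 0.0331). Eif4e, the cap-binding protein, was higher by 0.40 ± 0.11 (SE, limma adjusted p = 0.0136).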

How the data were processed

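The authors deposited one intensity per probe set and array, on a linear scale, and the submitters' processing notes name GCOS, an Affymetrix program, as the tool. Which version it was, and how it summarised or scaled the probes, is not given in the sources used here. RNA was amplified in a protocol with repeated cDNA synthesis, per the labels' protocols. The log2 ratio of the 3′ to the 5′ Gapdh control probe set averaged 1.39 ± 0.32 in DN2, 1.04 ± 0.17 in DN3 and 1.16 ± 0.21 in DN4 (SD, n = 4). The stages overlapped in this ratio, and its part in the differences was not tested. The genes, the lists and the tests were chosen with earlier results of these data known. Of 45101 probe sets, 64 were controls. The platform annotation gave a single gene symbol for 34958, more than 1 for 932, and did not list 9211 with a gene. Current RefSeq symbols were looked up by Entrez identifier.

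Signals were quantile normalized and the table's 25th percentile (5.57) was added before log2. Genes above the table median (signal 20.1) on at least 4 arrays were kept, 11243 of 18193. The main fit used limma 3.58.1 (lmFit, contrasts.fit and eBayes, R 4.3.3) with a mean for each stage over the 12 arrays. Its p-values are two-sided, with Benjamini-Hochberg adjustment over every gene tested. Simulated data with known changes were used to test it. Differences carry standard errors from this fit, with 9 residual degrees of freedom for a gene before moderation. The number of arrays limits the precision. Paralog pairs were compared by exact permutation of 4 against 4 arrays, adjusted over 15 tests. Python 3.11.15 with pandas 2.3.3 and matplotlib 3.10.9 drew the figures.

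Per the labels, arrays of the same number share a cell source, so the numbers pair the arrays. Over all genes, arrays of 1 sort deviated together from their stage means (correlations of 0.245 to 0.335 between stages), while those of different sorts correlated at -0.238 to 0.107. An alternative fit blocked on the sort. Arrays within a stage correlated at 0.969 to 0.985, and 0 were identical.

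Genes described with values were both genes of each pair, up to 10 called rises and falls in each comparison, those whose DN4 and DN2 arrays did not overlap, the smallest differences, those with a bright probe set that went the other way by over 0.5, and up to 4 called genes of each list. Not every gene so allowed is printed.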

Additional observations from a re-analysis of the deposited data

Results flagged for a closer look

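Rps4l, the paralog of Rps4x, was dim, and 1 of its DN2 arrays stood apart from the others of that stage. The log2 signal on the DN2 array of sort 2 was 4.204, against 5.212 to 5.419 on the other DN2 arrays, a gap of 0.83 of the whole range. Among the 54 groups of 4 arrays examined, chance alone marks about 1 in 20. That array lies below the filter level of 4.68, and the gene was not called in any comparison.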

How the results depend on the processing

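Precision was set by 4 arrays per stage, and after quantile normalization a given rank has 1 signal on every array: Rpsa stood at 13417 on all 4 DN4 arrays. The median difference of the group (DN4 against DN2, 0.02) was 0.36 with arrays centred on their median, -0.017 with no normalization, 0.18 with arrays scaled to their sum, 0.047 with the mean of all probe sets and 0.06 without probe sets ending in _x_at or _s_at. For DN4 against DN3 it was 0.25, -0.16 and 0.18 under the 3 scalings and 0.013 without those probe sets, and for DN3 against DN2 it was 0.10, 0.145 and 0.0035, and 0.067 in sorts 1 and 2 alone. With the replicate block, numbers called higher and lower were 1 and 0 (DN3 against DN2) and 4 and 3 (DN4 against DN3), and it changed no other count of ribosomal protein genes by over 1.5 times. With arrays centred on their median they were 1 and 1 for DN4 against DN3, beside 15.3% of all genes called. For DN4 against DN2 they were 16 and 1, beside 34.3%. With the replicate block added they were 1 and 0, 8 and 2, and 27 and 1 over the 3 comparisons, with medians as without it. The shares of all genes called were then 20.5%, 27.8% and 46.7%. With no normalization 0 were higher and 1 lower for DN4 against DN2, and 3 lower for DN4 against DN3. The shares of all genes called were 27.1% and 25.7%. With arrays scaled to their sum 2 were higher and 1 lower for DN4 against DN2, and 2 lower for DN4 against DN3. Of all genes, 34.2% and 17.1% were called. For DN4 against DN2, 2 were higher with no filter, beside 17.5% of all genes called, and 3 with only the 8 arrays compared, beside 29.9%. In sorts 1 and 2 alone 1 was higher and 1 lower, beside 16.3%, and in sorts 3 and 4 alone 2 and 1, beside 19.8%. Among genes with signal above 1000, 2 were higher and 1 lower, beside 34.4%, and 0 were lower for DN4 against DN3, beside 16.0%. The filter at the 75th percentile, which removes Rpl3l, gave 1 lower, beside 43.9% of all genes called. For DN4 against DN3 it gave 1 higher and 0 lower, beside 24.1%. The mean of all probe sets and the set without _x_at and _s_at gave 1 lower each for DN4 against DN2. They called 32.5% and 34.4% of all genes. The trend and robust settings gave 1 higher and 2 lower for DN4 against DN3, beside 18.1% of all genes called. Leaving out 1 array at a time gave medians of 0.0075 to 0.039 and 2 to 4 genes higher for DN4 against DN2 (lowest without the DN2 arrays of sorts 1 and 2 and the DN4 array of sort 2), and 0 to 1 higher for DN4 against DN3 (1 without the DN2 array of sort 2 or 3). Of all genes, 28.4% to 33.9% were then called for DN4 against DN2 and 9.84% to 16.9% for DN4 against DN3. Rpl7 between DN4 and DN2 was -0.004 and became 0.36 with arrays centred on their median and the replicate block (limma adjusted p = 0.0452). The cause of these shifts was not tested. Of 1416 values of single genes under the alternatives, that of Rpl7 among them, 1342 kept their direction and their side of the threshold, 51 lost a call, 22 gained one and 1 reversed. The alternatives with genes above a signal of 1000, without Rps19bp1, scaled to the sum, and median centring with the block were chosen after seeing the data. The paralog tests could hardly pass at this size, so they say nothing about stability.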

Other observations

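Rpl3l lies on chromosome 17 close to Rps2, with Ndufb10 between them and Msrb1 on its other side in the RefSeq annotation. The neighbours did not share its fall: between DN4 and DN2 the log2 difference was -3.33 for Rpl3l, 0.07 for Rps2, which encodes a small-subunit protein, 0.29 for Ndufb10, a subunit of mitochondrial complex I, and 0.32 for Msrb1, a methionine sulfoxide reductase. Farther out, Tbl3, a small-subunit processing factor, differed by 0.87 and Hagh, a glyoxalase, by 0.91.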
